A study of Homo sapiens with 6 samples.

Results

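The genes described here are the Wnt ligands, their receptors, and the proteins that make, block or limit them, 48 genes that were listed by name and looked up by symbol in the count tables of 1CT and 1CT-A cells. All 48 were found among the 24462 different symbols of the tables, each as a single entry. By role, the list held 15 ligands, 10 Frizzled receptors, 5 co-receptors or alternative receptors, 10 secreted antagonists, 5 attenuators on the membrane or in the cytoplasm, the R-spondin RSPO3, and 2 genes of ligand acylation and transport. 1CT is an immortalized human colon epithelial cell (HCEC) line, given in the labels as wild type, and 1CT-A is its derivative with depleted wild type APC, given in the labels as an APC knockdown (KD). Each cell line gave 3 libraries, and the cells had no treatment and grew in a DMEM and M199 medium with 20 ng/mL EGF, hydrocortisone, insulin, transferrin, 5 nM sodium selenite and 2% FBS, with no Wnt ligand named among the supplements. The labels do not say whether the replicates came from separate cultures or whether 1CT-A is a single clone, so the p-values measure only the spread between these libraries.

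Wnt proteins are secreted ligands that carry a lipid, attached by PORCN in the endoplasmic reticulum, and travel to the cell surface with the carrier WLS. A Wnt bound to a Frizzled receptor together with LRP5 or LRP6 stops the complex of APC, AXIN, GSK3 and CK1 from marking β-catenin for breakdown, while Wnts such as WNT5A also act through ROR1, ROR2 and RYK without β-catenin. In the colon, Wnt signals from the crypt base and the tissue around it keep the stem cells dividing, and loss of APC turns on the β-catenin branch below the receptors, that is, downstream of every gene in this list. Several antagonists and attenuators, among them DKK1, NKD1, RNF43, ZNRF3 and NOTUM, are known targets of β-catenin that feed back on the pathway.

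The libraries were 3′ end libraries, so a value is the number of reads counted on a gene, given as CPM (the counts scaled to a common library total). Between 7788679 and 8452258 reads were counted in 1CT and between 11158108 and 12602988 in 1CT-A, and a count of 3, taken as the smallest visible level, was 0.238 to 0.385 CPM, an allowance that covers counting error only. APC itself had 417, 363 and 363 counts in 1CT and 351, 342 and 433 in the deeper 1CT-A libraries, or 46.6 ± 2.75 CPM (SD, n = 3) against 31.9 ± 2.21 CPM (SD, n = 3). APC was thus lower in 1CT-A but far from absent, with a log2 fold change of -0.58 (SE 0.09, edgeR adjusted p = 1.76e-04). The label of a colon epithelial cell was checked against 16 epithelial markers: 10 had at most 3 counts in every library, EPCAM and VIL1 were at 0 throughout, and the 3 with enough counts to test, KRT18, KRT19 and CLDN7, were all lower in 1CT-A. KRT19 had 20, 27 and 34 counts in 1CT and 0 in every 1CT-A library, so it was tested because of 1CT alone. Among all genes tested 26.0% were called lower, and 3 markers are too few to set against that share. The summed CPM of the 16 epithelial markers was 41.3 to 45.5 in 1CT and 23.6 to 30.9 in 1CT-A. All 14 mesenchymal or fibroblast markers had enough counts to be tested, with 5 higher and 6 lower in 1CT-A and a median log2 fold change of 0.00, among them COL3A1 and TWIST1 higher at 2.37 and 1.87 and S100A4 lower at -2.08. POSTN, 1 of the 5 higher, had 0, 0 and 2 counts in 1CT and 24, 36 and 28 in 1CT-A, so it was tested because of 1CT-A alone. Of all genes tested, 51.0% were called in either direction. The summed CPM of the 14 markers was 45147 to 53219 in 1CT and 22323 to 23700 in 1CT-A, most of it from FN1 alone (44241 ± 3619 CPM and 18128 ± 829 CPM, SD, n = 3 each), and the part of this list in the differences below was not tested. Of leukocyte, endothelial and red cell or serum markers, 12 of 15 had at most 3 counts in every library. With most epithelial markers near 0 and every mesenchymal or fibroblast marker tested, these lists did not bear out the epithelial label in either cell line.

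The sequences upstream of the transcription start are shown for WNT2B and FZD5, which rose most, for ROR1 and ROR2, which moved in opposite directions, and for DKK1, a secreted antagonist that was called lower and whose window is the single one among the members with the site searched. No entry was matched for SFRP1 and DKK3, and a window of PORCN is not shown because those in the table lie at least in part inside the annotated gene. They are the 250 bases before the start in RefSeq on GRCh38.p14, 5′ to 3′ on the strand of the gene, and capitals mark CTTTGAT or CTTTGAA, 2 forms of the site bound by TCF/LEF factors, searched on both strands.
WNT2B: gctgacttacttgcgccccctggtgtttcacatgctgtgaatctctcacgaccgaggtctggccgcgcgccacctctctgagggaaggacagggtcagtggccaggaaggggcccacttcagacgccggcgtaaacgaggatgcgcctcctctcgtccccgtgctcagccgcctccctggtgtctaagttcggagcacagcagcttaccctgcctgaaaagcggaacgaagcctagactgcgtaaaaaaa
FZD5: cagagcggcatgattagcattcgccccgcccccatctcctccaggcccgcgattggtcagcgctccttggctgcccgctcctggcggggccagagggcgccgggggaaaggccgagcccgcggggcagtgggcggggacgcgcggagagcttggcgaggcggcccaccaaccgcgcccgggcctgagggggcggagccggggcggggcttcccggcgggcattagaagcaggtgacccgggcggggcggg
ROR1: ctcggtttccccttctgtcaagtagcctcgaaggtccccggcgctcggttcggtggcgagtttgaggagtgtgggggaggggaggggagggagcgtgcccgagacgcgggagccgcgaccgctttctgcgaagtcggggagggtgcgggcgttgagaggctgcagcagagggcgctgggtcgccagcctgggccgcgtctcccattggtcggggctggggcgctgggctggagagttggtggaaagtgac
ROR2: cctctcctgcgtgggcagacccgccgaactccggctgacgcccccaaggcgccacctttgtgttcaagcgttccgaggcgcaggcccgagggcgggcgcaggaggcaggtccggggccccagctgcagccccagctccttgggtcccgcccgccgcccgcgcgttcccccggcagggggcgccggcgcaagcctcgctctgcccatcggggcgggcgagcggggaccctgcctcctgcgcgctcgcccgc
DKK1: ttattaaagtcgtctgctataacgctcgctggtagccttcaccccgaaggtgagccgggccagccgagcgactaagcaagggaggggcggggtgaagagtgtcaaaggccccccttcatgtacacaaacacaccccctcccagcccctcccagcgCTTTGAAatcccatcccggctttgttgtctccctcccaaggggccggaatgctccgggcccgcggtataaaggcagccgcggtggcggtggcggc
These windows are chr1:112466291-112466540 (WNT2B, plus strand), chr2:207769907-207770156 (FZD5, minus strand), chr1:63773767-63774016 (ROR1, plus strand), chr9:91950229-91950478 (ROR2, minus strand) and chr10:52314031-52314280 (DKK1, plus strand). WNT2B has a further start in RefSeq that is not shown, and 3′ end reads do not tell which start was used. Promoters were matched for 31 of the 48 members, of which 1, DKK1, held either form of the site (3.23%), against 7.24% of all 27305 genes in the table and 5.94% of all 35116 promoters. Of the tested members 14 were matched, and the same 1 is 7.14% of them, against 5.20% of the 9331 tested genes in the table, so a single gene sets these shares and no order is read from them. No match says only that these letters are not in the window. The ROR2 window has a GC content of 78.0% and that of ROR1 69.2%, with 32 and 24 CpG dinucleotides.

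Of the 48 members, 21 had enough counts to be tested and 27 did not. edgeR's quasi-likelihood test called 15 of the 21 at an adjusted p under 0.05, 6 higher and 9 lower in 1CT-A. Among all 12514 genes tested, 51.0% were called, 25.0% higher and 26.0% lower, so most genes that could be tested differed between these cell lines and the count of 15 has to be read against that. The median log2 fold change was -0.10 over the 21 members and -0.01 over all genes tested. Changes of at least 2-fold were called in 5 members, SFRP1, DKK3 and PORCN lower and WNT2B and FZD5 higher, against 13.9% of all genes. In 14 of the 21 the CPM of the 3 1CT libraries did not overlap with those of the 3 1CT-A libraries, against 59.7% of all genes tested. Among the tested members, WNT2B reached the level that the filter asks for in all 3 libraries in 1CT-A only and FZD1 in 1CT only, so that each was tested because of the cell line in which its mean is higher. WNT2B is 1 of the 15 called, of the 6 higher and of the 5 called at 2-fold. Its p is therefore given below only without that filter.

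**Figure D1:**
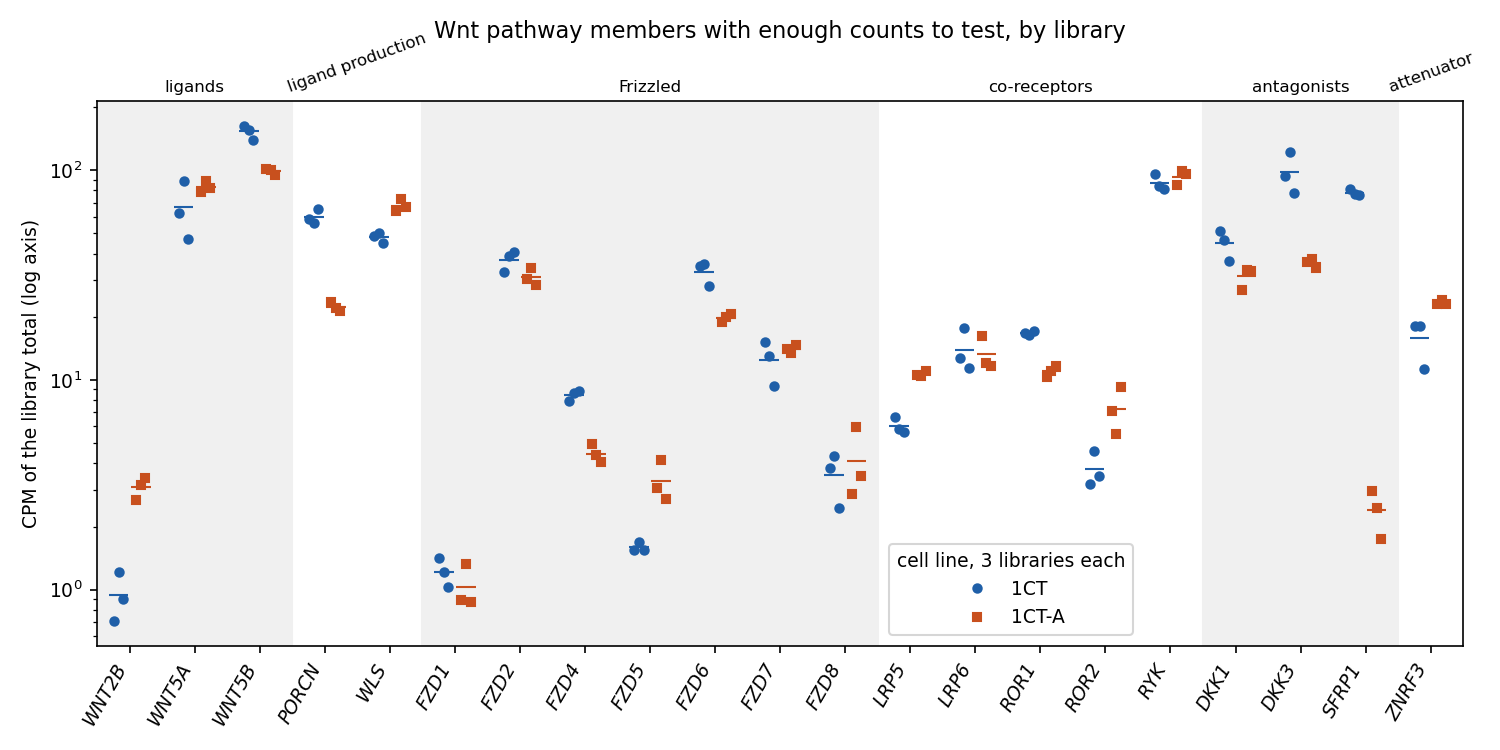
CPM of the library total (log axis) of the 21 members with enough counts to test, with 3 points per cell line (1CT circles, 1CT-A squares) and a line at the mean. The largest gap is that of SFRP1, between 75.8 and 81.5 CPM in 1CT and between 1.75 and 2.96 CPM in 1CT-A, while WNT5A, LRP6, RYK, FZD1, FZD2, FZD7 and FZD8 overlap.

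All 3 secreted antagonists with enough counts to test fell, where 26.0% of all genes tested fell, and SFRP1 fell by far the most. In bulk libraries, fewer cells with a transcript and less of it per cell cannot be told apart. SFRP1, a soluble protein with a Frizzled-like domain that binds Wnts outside the cell, was counted 689, 637 and 590 times in 1CT against 33, 28 and 22 times in the deeper 1CT-A libraries. Its level was 78.1 ± 3.05 CPM in 1CT against 2.39 ± 0.609 CPM in 1CT-A (SD, n = 3 each). All 3 1CT-A libraries were thus far below all 3 1CT libraries yet above the limit of 3 counts, a log2 fold change of -5.08 (SE 0.14, edgeR adjusted p = 9.3e-11), or 33.7-fold lower. Among all 12514 genes tested, 91 had a larger fall on the log2 scale. The gene lies on the minus strand of chromosome 8 from 41261962 to 41309473 in GENCODE 44 (GRCh38).

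DKK3, a Dickkopf relative whose part in Wnt signalling is less settled than that of DKK1, stood at 93.5, 122 and 77.4 CPM in 1CT and at 36.5, 37.8 and 34 CPM in 1CT-A. The 1CT libraries spread widely, but the lowest of them was still above every 1CT-A library, with a log2 fold change of -1.47 (SE 0.13, edgeR adjusted p = 1.43e-06). Its 3′ end on chromosome 11 (from 11956207 to 12009769, minus strand, GRCh38) overlaps exons of USP47 on the other strand, and the strand setting of the counting is not given in the sources used here. USP47 was at 82.7 ± 3.42 CPM in 1CT against 82.5 ± 7.48 CPM in 1CT-A (SD, n = 3 each), a log2 fold change of -0.04 (SE 0.08). DKK1, which binds LRP5 and LRP6 and keeps them from Frizzled, was lower by a smaller amount, at 51.3, 46.4 and 36.7 CPM in 1CT and 26.9, 33.3 and 33.2 CPM in 1CT-A. The cell lines came close but did not overlap, and the log2 fold change of DKK1 was -0.56 (SE 0.12, edgeR adjusted p = 0.00188).

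Reads on SFRP1, DKK1 and DKK3 made up nearly all reads of the 10 secreted antagonists, whose summed level was 226, 247 and 191 CPM in 1CT and 66.6, 74.3 and 69.7 CPM in 1CT-A. The sum was 3.16-fold lower in 1CT-A, without overlap, and the exact two-sided permutation p was 0.1, the smallest that 3 against 3 allows. Of the other antagonists, the Wnt-binding proteins SFRP2, SFRP4, SFRP5 and WIF1, the Dickkopf protein DKK4 and the lipid-removing enzyme NOTUM had at most 3 counts in any library. DKK2 had 1, 9 and 5 counts in 1CT and 2, 6 and 5 in 1CT-A, too few for the test and overlapping between the cell lines.

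**Figure D2:**
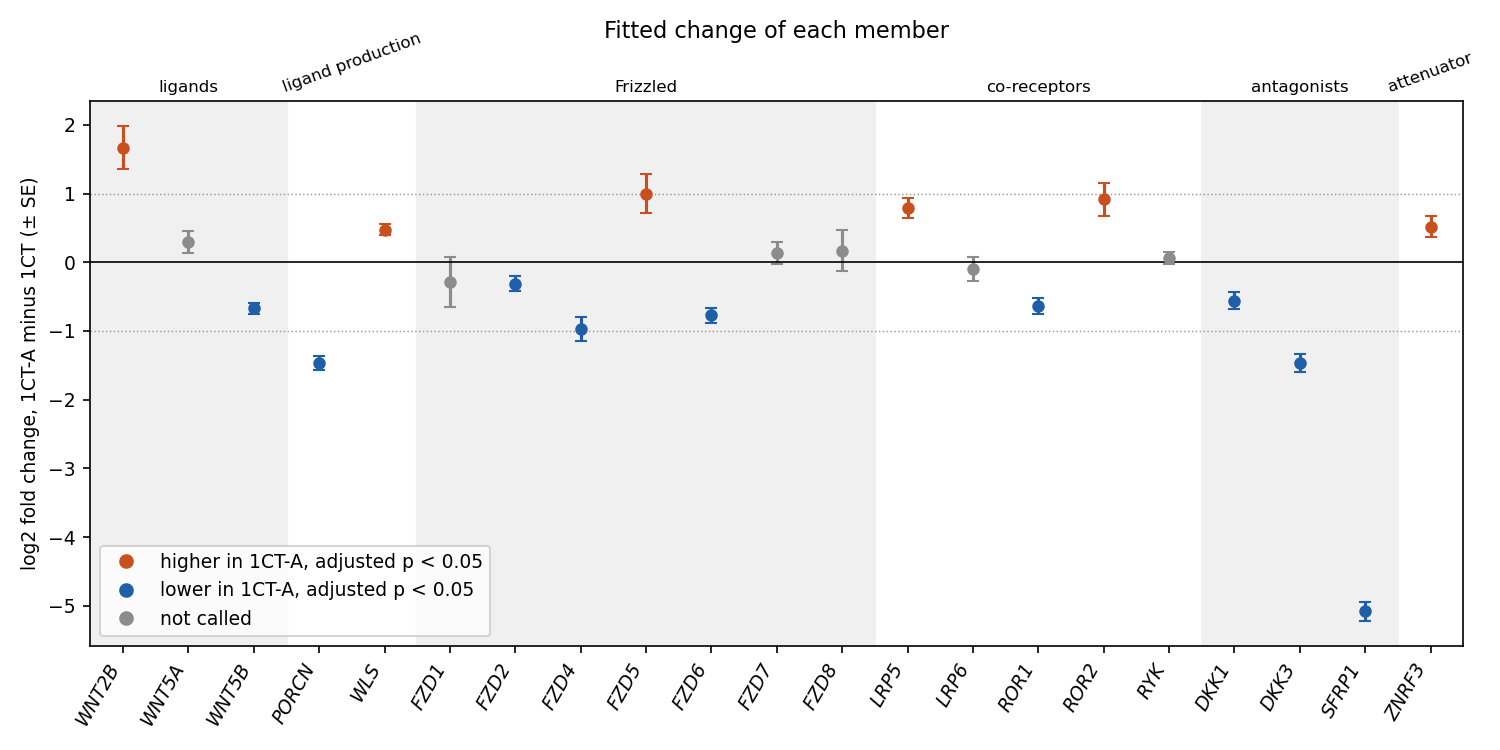
Fitted log2 fold change (above 0 means more in 1CT-A) for the 21 tested members, with bars of 1 SE, coloured by the call at an adjusted p under 0.05 and dotted lines at 2-fold. SFRP1 stands apart at -5.08, the other called members lie between -1.47 and 1.67, and the uncalled ones between -0.29 and 0.29.

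Among the ligands, reads fell almost only on WNT5A and WNT5B, 2 related ligands known mainly for signalling without β-catenin. WNT5B was at 163, 156 and 139 CPM in 1CT and at 101, 99.6 and 94.7 CPM in 1CT-A, a fall of 0.67 on the log2 scale (SE 0.08, edgeR adjusted p = 1.19e-05) without overlap. WNT5A was at 62.7, 89.1 and 47.1 CPM in 1CT and at 78.8, 89.1 and 82.5 CPM in 1CT-A. The 1CT libraries were the more variable, 2 of them below every 1CT-A library and 1 level with the highest, and WNT5A was not called (log2 fold change 0.29, 95% interval -0.05 to 0.64, edgeR adjusted p = 0.143). Without 1CT replicate 2, the highest of the 1CT libraries, the log2 fold change was 0.56 (edgeR adjusted p = 0.00126), and without 1CT replicate 3, the lowest, it was 0.11 (edgeR adjusted p = 0.405). With all 6 libraries WNT5A was called without a filter on low counts (0.34, edgeR adjusted p = 0.00137) and with the replicate block (0.33, edgeR adjusted p = 0.0402), so the call depended on the libraries and on the setting. The ratio of WNT5A to WNT5B counts within a library, which no scaling between libraries can move, was 0.385, 0.572 and 0.338 in 1CT and 0.777, 0.894 and 0.872 in 1CT-A. The 2 ligands therefore shifted relative to each other, by 1.96-fold in the means of the ratio and without overlap.

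WNT2B, a ligand of the β-catenin branch that stromal cells around the crypt are known to make, was the member with the largest rise. It had 6, 10 and 7 counts in 1CT and 30, 36 and 43 in 1CT-A, or 0.939 ± 0.251 CPM (SD, n = 3) against 3.09 ± 0.367 CPM (SD, n = 3). The values did not overlap, with a log2 fold change of 1.67 (SE 0.32), but they were low in both cell lines. Without the filter that WNT2B passed through 1CT-A, the log2 fold change was 1.72 (SE 0.37, edgeR adjusted p = 2.04e-05). That p is the smallest among the alternatives. DESeq2, also run without that filter, gave 1.70 (SE 0.51, DESeq2 adjusted p = 0.00333). The gene lies on chromosome 1 from 112466541 to 112530165 on the plus strand (GRCh38), with no other exon over its 3′ end.

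The remaining 12 ligands were not tested. WNT3A, WNT9A, WNT10A and WNT11 were at 0 in all 6 libraries, and WNT2, WNT6 and WNT7A had at most 2 counts. WNT4, WNT7B, WNT10B and WNT3 reached at most 5, 4, 10 and 15 counts in a library, with overlap between the cell lines. WNT16 had 25 counts in 1CT replicate 2 and at most 7 in any other library, so that a single library held most of its reads. The sum over all 15 ligands was 223 ± 31.2 CPM in 1CT against 187 ± 5.73 CPM in 1CT-A (SD, n = 3 each), with overlap (exact two-sided permutation test, p = 0.2).

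The 2 genes of ligand production moved in opposite directions. PORCN, the acyltransferase that attaches palmitoleate to Wnts, had 496, 461 and 508 counts in 1CT and 261, 252 and 268 in the deeper 1CT-A libraries. That was 59.9 ± 4.89 CPM (SD, n = 3) against 22.3 ± 1.07 CPM (SD, n = 3), a tight separation with a log2 fold change of -1.47 (SE 0.10, edgeR adjusted p = 8.98e-08), or 2.76-fold lower. PORCN lies on chromosome X from 48508959 to 48520814 on the plus strand (GRCh38), with no other exon over its 3′ end. WLS, the carrier of lipid-bearing Wnts, was at 48.5, 49.9 and 44.8 CPM in 1CT and rose to 63.7, 72.8 and 66.7 CPM in 1CT-A (log2 fold change 0.47, SE 0.08, edgeR adjusted p = 4.88e-04). The 3′ end of WLS on chromosome 1 is overlapped on the other strand by GNG12-AS1, which had 10 to 21 counts in 1CT and 22 to 45 in 1CT-A, against 349 to 413 and 711 to 840 for WLS. The ratio of WLS to PORCN counts was 0.687 to 0.896 in 1CT and 2.72 to 3.29 in 1CT-A, a 3.80-fold higher mean ratio in 1CT-A.

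Of the 10 Frizzled receptors, which bind Wnts through a cysteine-rich domain and span the membrane, 7 were tested, and 1 rose, 3 fell and 3 were not called, so that 4 of 7 differed where 51.0% of all genes did. FZD5, a receptor of the β-catenin branch, had 13, 14 and 12 counts in 1CT and 34, 47 and 34 in 1CT-A. At 1.59 ± 0.0872 CPM (SD, n = 3) against 3.29 ± 0.744 CPM (SD, n = 3) the cell lines did not overlap, with a log2 fold change of 1.00 (SE 0.29, edgeR adjusted p = 0.0107). With DESeq2 the FZD5 call was lost at an adjusted p = 0.0531, and its adjusted p ran from 0.00428 to 0.0531 over the alternatives.

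FZD6, a receptor known from planar polarity that was more variable in 1CT, fell from 34.7, 35.7 and 28.0 CPM to 18.9, 19.9 and 20.5 CPM (log2 fold change -0.77, SE 0.11, edgeR adjusted p = 7.3e-05). FZD4, which also binds the non-Wnt ligand norrin, fell from 7.93, 8.69 and 8.86 CPM to 4.93, 4.39 and 4.05 CPM (log2 fold change -0.97, SE 0.18, edgeR adjusted p = 4.91e-04). Both receptors separated the cell lines completely. FZD2 was at 32.8, 38.8 and 40.7 CPM in 1CT and at 30.4, 34 and 28.4 CPM in 1CT-A, so it was called although the cell lines overlapped (log2 fold change -0.31, SE 0.11, edgeR adjusted p = 0.0278). That call was lost without 1CT replicate 2 or 3, without 1CT-A replicate 1 or 3 and in DESeq2, with an adjusted p from 0.00972 to 0.131 over the alternatives.

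FZD7, a receptor expressed in intestinal stem cells, was at 12.5 ± 2.92 CPM in 1CT against 14.1 ± 0.585 CPM in 1CT-A (SD, n = 3 each), and its log2 fold change of 0.13 had a 95% interval from -0.22 to 0.47. FZD8 was at 3.52 ± 0.980 CPM (SD, n = 3) and 4.11 ± 1.64 CPM (SD, n = 3), with 0.17 (95% interval -0.48 to 0.83). FZD1 was at 1.22 ± 0.197 CPM (SD, n = 3) and 1.03 ± 0.250 CPM (SD, n = 3), with -0.29 (95% interval -1.08 to 0.50). None of these 3 was called, and the intervals of FZD1 and FZD8 are too wide to exclude changes of the size called in FZD6. FZD9 had 5, 7 and 20 counts in 1CT and 11, 14 and 9 in 1CT-A, FZD3 had at most 12 counts, and FZD10 had a single count in 1 library. Summed over all 10 receptors, the level was 99.7 ± 4.6 CPM in 1CT against 78.9 ± 5.00 CPM in 1CT-A (SD, n = 3 each), without overlap (exact two-sided permutation test, p = 0.1).

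All 5 co-receptors or alternative receptors were tested, and 2 rose, 1 fell and 2 were not called, so that 3 of 5 differed, again near the 51.0% of all genes. LRP5, the co-receptor of Frizzled in the β-catenin branch, was at 6.63, 5.80 and 5.65 CPM in 1CT and at 10.6, 10.4 and 11 CPM in 1CT-A. It rose without overlap, with a log2 fold change of 0.79 (SE 0.15, edgeR adjusted p = 7.97e-04). LRP6, its close relative with the same role, was at 12.7, 17.6 and 11.4 CPM in 1CT and at 16.2, 12.0 and 11.7 CPM in 1CT-A. LRP6 overlapped fully and was not called, with a log2 fold change of -0.10 and a 95% interval from -0.49 to 0.29. The ratio of LRP5 to LRP6 counts was 0.449 ± 0.105 (SD, n = 3) in 1CT and 0.820 ± 0.150 (SD, n = 3) in 1CT-A, without overlap.

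ROR1 and ROR2 are receptors with a Frizzled-like ligand-binding domain, and ROR2 in particular is known as a receptor of WNT5A. ROR2 had 27, 38 and 27 counts in 1CT and 79, 63 and 116 in 1CT-A, or 3.75 ± 0.739 CPM (SD, n = 3) against 7.27 ± 1.84 CPM (SD, n = 3). It rose without overlap, with a log2 fold change of 0.92 (SE 0.24, edgeR adjusted p = 0.00582). ROR1 went the other way, from 16.8, 16.4 and 17.1 CPM in 1CT to 10.3, 11 and 11.7 CPM in 1CT-A, with a log2 fold change of -0.64 (SE 0.12, edgeR adjusted p = 7.82e-04). The ratio of ROR2 to ROR1 counts was 0.190, 0.279 and 0.203 in 1CT and 0.687, 0.504 and 0.784 in 1CT-A, so that its mean was 2.94-fold higher in 1CT-A. RYK, a Wnt receptor with an inactive kinase domain, was at 96.2, 83.9 and 81.4 CPM in 1CT and at 84.7, 98.5 and 96.2 CPM in 1CT-A. RYK was the member whose change was bounded most closely around 0, with a log2 fold change of 0.06 and a 95% interval from -0.13 to 0.25.

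**Figure D3:**
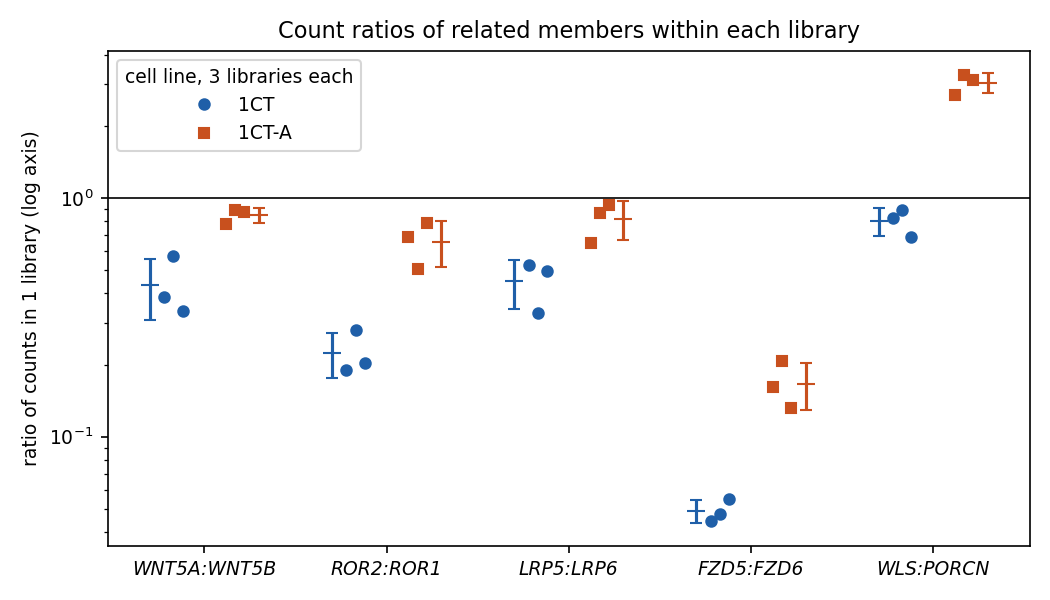
Ratio of the counts of related members within each library (log axis), with 3 points per cell line and the mean with its SD beside them. The 5 pairs were picked for drawing out of 8 after their values were seen, and in these 5 the 1CT-A libraries (squares) lie above the 1CT libraries (circles) without overlap. A ratio of counts is not a ratio of molecules, so its place above or below 1 has no meaning of its own.

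Of the 5 attenuators, ZNRF3 alone had enough counts. ZNRF3, a ubiquitin ligase that removes Frizzled from the cell surface, had 153, 149 and 88 counts in 1CT and 257, 273 and 290 in 1CT-A. Its CPM of 18.1, 18.0 and 11.3 in 1CT and 23.0, 24.0 and 23.0 in 1CT-A did not overlap, a rise with a log2 fold change of 0.52 (SE 0.15, edgeR adjusted p = 0.011). Without 1CT replicate 3, the lowest of the 1CT libraries, the log2 fold change of ZNRF3 was 0.35 (SE 0.11, edgeR adjusted p = 0.0171). RNF43, its partner in the same role, had at most 3 counts in a library, NKD1, which acts on the signal inside the cell, at most 2, and NKD2 and the DKK1 co-receptor KREMEN1 at most 4. RSPO3, a secreted R-spondin that protects Frizzled from ZNRF3 and RNF43, was at 0 in all 6 libraries. For these genes a difference was not detectable at this depth.

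Of the 8 count ratios formed between members, 5 were higher in 1CT-A without overlap, and the other 3 were not. The pairs and their order were chosen after values were seen, so the count of 5 is no result of its own. In ROR2 to ROR1, WLS to PORCN and FZD5 to FZD6, a member called higher stands over one called lower. The direction of these ratios restates those calls. FZD7 to FZD2 overlapped, at 0.343 ± 0.116 in 1CT and 0.458 ± 0.0594 in 1CT-A (SD, n = 3 each, exact two-sided permutation test, p = 0.3). Among the antagonists the ratio of SFRP1 to DKK1 was lower in 1CT-A, at 1.77 ± 0.256 against 0.0788 ± 0.0291 (SD, n = 3 each), and so was that of DKK3 to DKK1, at 2.19 ± 0.415 against 1.17 ± 0.169 (SD, n = 3 each), both without overlap.

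The rest of the pathway was read from 5 further lists, and 44 of their 89 tested genes that are no members were called, 19 higher and 25 lower, or 49.4% against 51.0% of all genes tested. That share, pooled over the 5 lists, is close to the background. Single lists ran from 8 called of 21 in the planar polarity and calcium branch to 14 of 19 among the β-catenin targets, members included. The counts by list below describe the lists, and no list was tested against the background. Of the 89 genes, 14 reached the level of the filter in all 3 libraries of only 1 cell line, and 9 of these were called. They include APCDD1, AMER1, CCDC88C, TCF7L1, CELSR3, PRICKLE1, TNFRSF19 and BMP4, whose place among the tested genes rests on the cell line in which they are higher, so their values are given without a p. At the level of ligands and receptors, 3 genes rose and 2 fell of 12 tested. APCDD1, a membrane inhibitor of Wnt signalling, had 0, 4 and 3 counts in 1CT and 25, 25 and 26 in 1CT-A (log2 fold change 2.83, SE 0.53). LGR4, a receptor of R-spondins, went from 54, 33 and 21 counts to 18, 31 and 30 in the deeper libraries. It fell by 1.00 on the log2 scale (SE 0.32, edgeR adjusted p = 0.0192). The cell lines overlapped in CPM of LGR4, at 4.36 ± 1.87 in 1CT and 2.24 ± 0.567 in 1CT-A (SD, n = 3 each). LGR5, the stem cell receptor of the same family, had 1 count in 1 library.

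Below the receptors, 5 genes rose and 7 fell of the 26 tested in the destruction complex and signal transduction list. CTNNB1, the gene of β-catenin, rose slightly, with 429 ± 5.20 CPM in 1CT, 503 ± 24.2 CPM in 1CT-A (SD, n = 3 each) and a log2 fold change of 0.19 (SE 0.06, edgeR adjusted p = 0.0212). The largest rise was that of DACT1, a partner of Dishevelled, at a log2 fold change of 1.32, and the largest fall that of CCDC88C, another Dishevelled-binding protein, from 113, 94 and 88 counts to 7, 2 and 1 (log2 fold change -5.37, SE 0.36). AXIN2, the classical feedback target, had 1 count in each 1CT library and 9, 1 and 5 in 1CT-A, too few for the test. Of the TCF/LEF factors and cofactors, 6 rose and 3 fell of 16 tested, with LEF1, a factor that binds β-catenin, from 9, 14 and 9 counts to 143, 169 and 116 (log2 fold change 3.18, SE 0.27, edgeR adjusted p = 7.7e-07). TCF7L1, a family member known mainly as a repressor, fell by 2.66 on the log2 scale.

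In the planar polarity and calcium branch, 2 genes rose and 6 fell of 21 tested, with CELSR3, a polarity cadherin, at a log2 fold change of 1.11 and PRICKLE1, a cytoplasmic polarity protein, at -3.08. The 30 β-catenin target genes, a list that holds 6 members and shares genes with the lists above, gave 6 higher and 8 lower of 19 tested, with a median log2 fold change of -0.05. TNFRSF19 rose most, from 4, 3 and 2 counts to 33, 50 and 65, and BMP4 fell most, from 80, 89 and 80 counts to 7, 8 and 14. Of the 6 members among these targets, ZNRF3 was called higher and DKK1 lower, and NKD1, RNF43, NOTUM and WIF1 had at most 3 counts in any library.

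**Figure D4:**
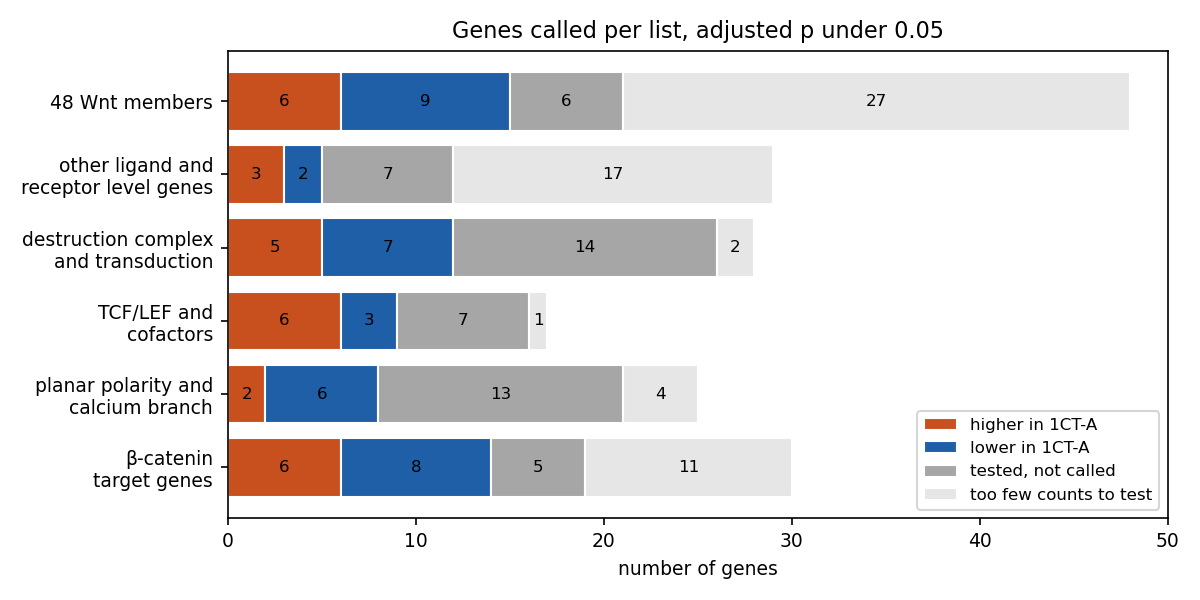
Number of genes in the member list and in 5 further pathway lists that rose (orange) or fell (blue) in 1CT-A with an adjusted p under 0.05, tested and not called (grey), or had too few counts to test (light grey). In the member list, the longest, 27 of 48 genes lacked enough counts, and of the other ligand and receptor level genes only 12 of 29 were tested. Rises and falls occur in every list.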

How the data were processed

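RNA-seq was analysed from 3 libraries of 1CT and 3 of 1CT-A, made with the QuantSeq 3′ kit from 500 ng of total RNA. The authors deposited 1 table of raw read counts per library, with 25737 entries for gene symbols, not normalized and not pooled. Counts of repeated symbols were added together, which concerns no member. The submitters' processing notes name Bowtie2, edgeR and the build hg19, and the counting tool, annotation and strand setting are not given in the sources used here. Positions come from GENCODE 44 on GRCh38 and describe that annotation, not the counting.

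CPM were scaled to the total of each file. 1CT-A was tested against 1CT with edgeR 4.0.16 (TMM, filterByExpr with a minimum count of 10, about 1.02 CPM in 3 libraries, quasi-likelihood test, Benjamini-Hochberg adjustment over 12514 genes), which takes the place of the per-gene two-tailed test of the study because the values are counts. SE were derived from the F statistic. Replicates differed by more than counting noise (chi-square per degree of freedom 3.11 to 9.00). The pairs with 1CT replicate 3 gave 7.54 and 9.00, and the other pairs 3.11 to 4.56. All members were accounted for, and members called with at least 2-fold change were given by library. Members without enough counts were named with their counts, and from each pathway list the largest called rise and fall were named. The other values by library, the count ratios, sums and the promoters shown were chosen after values were seen. The members and lists were chosen with earlier results of these data known. The listed symbol FAM123B was matched as AMER1 through the RefSeq synonyms, after values were seen.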

Additional observations from a re-analysis of the deposited data

How the results depend on the processing

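Of 312 values of the 21 tested members under 15 alternatives, 299 kept their direction and their side of the threshold. The alternatives were DESeq2 size factors, library size only, upper quartile scaling, no filter, a minimum of 10 counts in each of the 6 libraries, limma-voom 3.58.1, DESeq2 1.42.0, the replicate block, thinning to 7788679 counts, and each library left out. The direction turned for FZD7 without 1CT replicate 3 (-0.03), FZD8 without 1CT replicate 3 (-0.01) and without 1CT-A replicate 2 (-0.18), and LRP6 without 1CT replicate 2 (0.10), none of them called, and the cause was not tested. With each library left out in turn, FZD7 ran from -0.03 to 0.28, FZD8 from -0.18 to 0.37 and LRP6 from -0.27 to 0.10.

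The number of members called was 12 to 19 under all alternatives except the 2-fold change and unadjusted p under 0.01 of the study's methods, which left 5 members, 18 other pathway genes and 1676 genes in all, by its construction. The number tested changed as well, so these counts do not share a denominator. The main fit called 15 of 21 members and 6388 of 12514 genes. Without a filter it was 19 of 41 members and 7238 of 19169 genes, and in DESeq2 13 of 41 and 5681 of 19169. Leaving out 1 library gave 14 to 16 members. Without a filter FZD3, WNT7B, WNT16 and WNT5A were also called. The split of all calls moved from 3131 higher and 3257 lower to 2681 and 3661 with upper quartile scaling, and the member split stayed at 6 and 9. SFRP1 ran from -5.26 to -4.88, PORCN from -1.52 to -1.38 and DKK3 from -1.60 to -1.28. WNT2B was not tested under the stricter filter.

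Correlations of deviations between libraries of equal replicate number were -0.15, 0.207 and -0.134 over 8231 genes. Those between different numbers ran from -0.277 to 0.328. With 3 libraries per cell line, these values cannot show whether the libraries were paired. With the replicate block 16 members were called, WNT5A being added (log2 fold change 0.33, edgeR adjusted p = 0.0402), and 6091 genes in all. Precision is limited for members near 10 counts.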
